A study of Mus musculus with 4 samples.

Results

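Brown and beige adipocytes burn fuel to make heat, and 10 genes long used to recognise them are described here in fat cells of the skin and of the groin. The genes were chosen by symbol (Prdm16, Ebf2, Ppargc1a, Ucp1, Dio2, Cidea, Elovl3, Cpt1b, Cox7a1 and Cox8b), and all 10 had a row among the 18781 genes of the expression table. Mature dermal adipocytes (dWAT), from the fat layer within the skin, were compared with mature inguinal adipocytes (sWAT), from the subcutaneous pad of the groin. Both came from C57BL/6 mice at postnatal day 30, and the labels name no other genotype or treatment. Adipocytes were freed by enzyme digestion and collected because they float, and total RNA was sequenced in 2 libraries per depot.

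White adipocytes store fat in a single large droplet, whereas brown adipocytes hold many small droplets and dense mitochondria. Beige adipocytes are brown-like cells that arise within white depots, and the inguinal pad is the mouse depot best known for them. In both, noradrenaline acts through beta-adrenergic receptors and cyclic AMP to release fatty acids and to raise transcription of Ucp1, whose protein lets protons leak across the inner mitochondrial membrane so that respiration gives heat instead of ATP. Transcription regulators such as PRDM16, EBF2 and PGC-1alpha maintain this state.

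Levels are normalized CPM, reads of a gene relative to sequencing depth with the authors' library scaling, and 1 read was worth 0.0844 to 0.0969 CPM. The libraries held 10127125 to 12730013 reads assigned to genes. A gene was tested when it reached 1 CPM in at least 2 libraries, which 12797 genes did, and each log2 fold change sets dermal over inguinal levels after adding 0.5 CPM, so a negative value is higher in inguinal. Nothing in the labels says that libraries of a depot stem from different animals, and the p-values then measure just the spread among these 4 libraries, possibly a technical one. The 12 mature adipocyte markers had summed levels of 46455 and 42867 CPM in dermal libraries against 47967 and 43863 in inguinal ones. Cfd and Fabp4 had the highest means among them, so the sum says little about each marker. In bulk RNA, fewer cells of a type and less RNA per cell cannot be told apart.

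All 10 genes had a higher mean level in inguinal than in dermal adipocytes. The largest separations were in Ucp1 and the lipid droplet gene Cidea, and those of the cytochrome oxidase gene Cox8b and the deiodinase gene Dio2 were small. In the elongase gene Elovl3 the depots overlapped. Of the 10, 9 passed the expression filter, and 8 of those were called higher in inguinal (two-sided limma test, p adjusted by Benjamini-Hochberg over all tested genes, below 0.05). Of all tested genes 16.4% were called, 8.8% higher in inguinal and 7.56% higher in dermal. In 9 of 9 tested members both inguinal values lay above both dermal values, which was so for 30.1% of all tested genes, while 61.8% showed no overlap in one direction or the other. The median log2 fold change of the 9 was -1.72, against 0.02 over all tested genes. The members were chosen with earlier results of these data known, so these counts and this median are no independent support. Ucp1 passed the filter through the inguinal libraries alone. Without Ucp1, 7 of the other 8 were called, and their median was -1.49. Elovl3 was too low to be tested, and Dio2 did not pass. Without dermal replicate 1 the number called was 5, and without dermal replicate 2 it was 6.

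**Figure D1:**
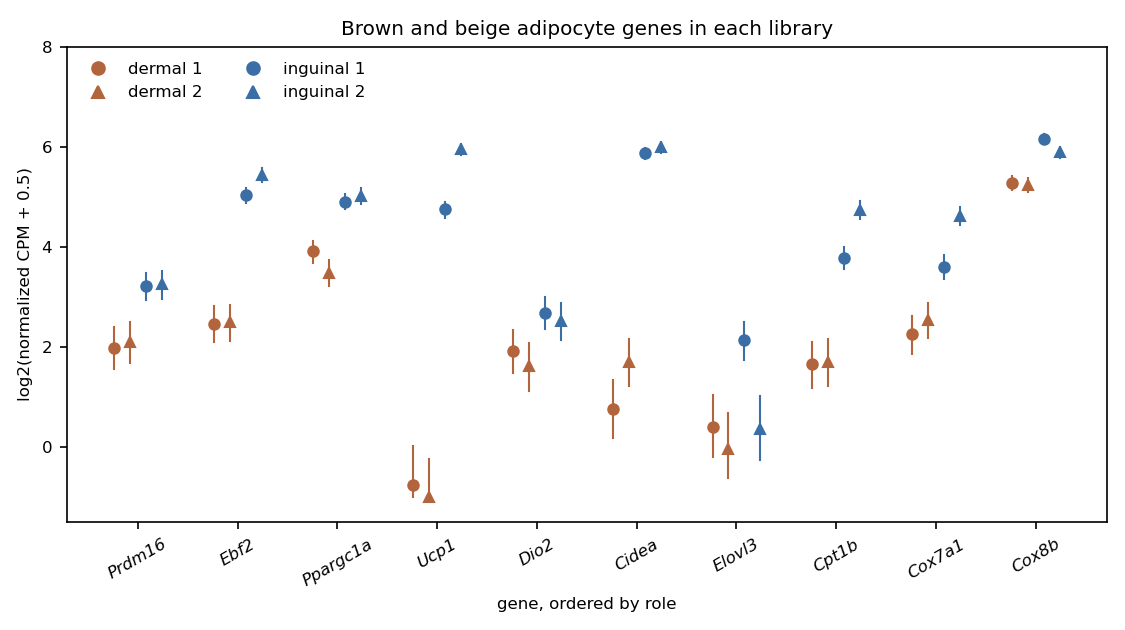
Level of each of the 10 genes on the log2(normalized CPM + 0.5) scale (vertical axis) in the 2 dermal (brown) and 2 inguinal (blue) libraries, with replicate 1 as circles and replicate 2 as triangles. Vertical lines are exact 95% Poisson intervals, which cover counting error only. Inguinal points sit above dermal points for 9 genes, and for Elovl3 inguinal replicate 2 lies among the dermal libraries.

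Stretches upstream of 3 of the genes are shown because they belong to members that cyclic AMP signalling is known to raise, and because each holds the core of the cyclic AMP response element (CRE). Promoter sequences of 6 of the 10 members (Ucp1, Dio2, Ppargc1a, Prdm16, Cox7a1 and Cox8b) were matched in the RefSeq table of build GRCm38.p6. In the 250 bases upstream of each start below, written 5′ to 3′ on the gene's strand, capitals mark the CRE core TGACG on either strand and the nuclear receptor core AGGTCA. The windows lie at chr8:83290098-83290347 (plus strand) for Ucp1, chr5:51567726-51567975 (minus strand) for Ppargc1a and chr12:90739039-90739288 (minus strand) for Dio2.
Ucp1: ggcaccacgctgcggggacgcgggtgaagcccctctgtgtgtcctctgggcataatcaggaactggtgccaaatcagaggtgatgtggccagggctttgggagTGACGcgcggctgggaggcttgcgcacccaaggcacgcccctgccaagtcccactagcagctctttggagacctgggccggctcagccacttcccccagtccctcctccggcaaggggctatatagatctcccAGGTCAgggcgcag
Ppargc1a: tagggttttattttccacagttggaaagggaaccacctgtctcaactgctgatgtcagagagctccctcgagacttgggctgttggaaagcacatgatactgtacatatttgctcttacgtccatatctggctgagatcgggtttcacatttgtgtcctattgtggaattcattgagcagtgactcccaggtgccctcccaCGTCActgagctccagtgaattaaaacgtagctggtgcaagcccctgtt
Dio2: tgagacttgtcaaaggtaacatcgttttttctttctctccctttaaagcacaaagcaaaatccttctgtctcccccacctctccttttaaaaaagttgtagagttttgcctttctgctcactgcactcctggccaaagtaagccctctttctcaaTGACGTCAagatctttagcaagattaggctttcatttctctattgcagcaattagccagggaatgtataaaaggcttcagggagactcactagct

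The CRE core was in 3 of the 6 matched members' promoters, counted over 300 bases from 250 upstream of the start to 50 downstream, and in 20.8% of all 32851 promoters of that length. In Ucp1 it began 147 bases upstream of the start, and in Ppargc1a, on the other strand, 49 bases upstream. The Dio2 window held the full palindromic CRE, TGACGTCA, from 95 bases upstream, in which the core occurs on both strands and overlaps itself. That distance is from the RefSeq start. The GENCODE gene begins further downstream, at 90738438, so the element lies farther from that start. That full element was in 1 of the 6 and in 1.79% of all promoters. AGGTCA occurred in Ucp1 alone of the 6, from 14 bases upstream, and in 16.3% of all promoters. No match in any of the 6 was found for the estrogen-related receptor element TCAAGGTCA (0.423% of all promoters). TATAAA was in 2 of the 6 (13.6% of all), CCAAT in 2 (37.4%) and the E-box CANNTG in 4 (72.3%). These are matches of letters on both strands, not measured sites.

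Among the transcription regulators, Prdm16 encodes a zinc finger coregulator that holds cells to the brown and beige fate. It lies on chromosome 4, 154316125 to 154636873 (GRCm38, like all gene positions here, in the GENCODE annotation). Prdm16 measured 3.46 and 3.79 CPM in dermal libraries against 8.78 and 9.02 in inguinal ones. The depots did not overlap, libraries of a depot lay close together, and every library rested on 38 to 104 reads. The log2 fold change was -1.19 (SE 0.21, limma adjusted p = 0.0150). That call was lost without dermal replicate 1 (limma adjusted p = 0.0744) and, narrowly, without dermal replicate 2 (0.0504). Mecom, its closest relative in the PRDM family, was also higher in inguinal libraries, at 3.37 and 4.27 against 16.9 and 23.1 CPM (log2 fold change -2.24, SE 0.24, limma adjusted p = 0.00331). Both genes have annotated transcripts on the opposite strand, whose reads may not be separable.

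Ebf2, which encodes a helix-loop-helix factor that opens brown fat enhancers and is also active in adipocyte precursors, separated the depots more widely. It lies on chromosome 14, 67233292 to 67430918. Ebf2 measured 5.01 and 5.12 CPM in dermal libraries against 32.2 and 43.0 in inguinal ones. The lowest inguinal value was 6.28 times the highest dermal one. Its log2 fold change was -2.76 (SE 0.20, limma adjusted p = 0.00166), and the call held in all 14 alternatives run. The family did not move as a block. Ebf3 was higher in inguinal libraries to a like degree, at 12.7 and 13.2 against 60.4 and 81.4 CPM (log2 fold change -2.39, SE 0.18, limma adjusted p = 0.00166). Ebf1, the abundant general adipocyte family member, measured 327 and 315 CPM in dermal libraries against 312 and 320 in inguinal ones, and its difference had a 95% interval of -0.27 to 0.32 on the log2 scale. On the opposite strand, 5 annotated genes overlap Ebf2, 2 overlap Ebf3 and 1 overlaps Ebf1, and their reads may not be separable.

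Ppargc1a, on chromosome 5, 51454250 to 51567726, encodes PGC-1alpha, a coactivator that drives mitochondrial genes and answers to cold and cyclic AMP. It measured 14.6 and 10.7 CPM in dermal libraries against 29.6 and 31.9 in inguinal ones. Both inguinal libraries were above both dermal ones, with a log2 fold change of -1.26 (SE 0.19, limma adjusted p = 0.00959), and the call held in all 14 alternatives. Ppargc1b, which encodes the related coactivator PGC-1beta, leaned the other way without passing, at 13.7 and 15.5 CPM in dermal libraries against 9.20 and 12.4 in inguinal ones (95% interval of the difference -0.08 to 0.93). Per kilobase of exon, Ppargc1a made up 39.2% and 29.6% of the sum of both coactivators in dermal and 66.0% and 60.9% in inguinal libraries.

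Ucp1, the uncoupling protein that defines thermogenic fat, lies on chromosome 8, 83290352 to 83298452. It gave 1 and 0 reads in the dermal and 313 and 635 reads in the inguinal libraries, or 0.0910 and 0 CPM against 26.4 and 61.6 CPM. A count of 0 in dermal replicate 2 allows up to 0.285 CPM by the limit of 3 reads, and the two-sided exact 95% Poisson interval, which is the one plotted, reaches 0.350 CPM, so dermal Ucp1 was at or under the level that single reads give. Ucp1 passed the expression filter through the inguinal libraries alone, where it was high, and its test carries that limit. The ratio of levels, inguinal over dermal, was 921 with an exact 95% counting interval of 165 to 36416. Its size on a fitted scale depends on the pseudocount: the log2 fold change was -6.23 (SE 0.41, limma adjusted p = 0.00140) with a pseudocount of 0.5, -8.19 with 0.1 and -5.31 with 1. Leaving out inguinal replicate 1 gave -6.83, leaving out inguinal replicate 2 gave -5.63, and Ucp1 was called in all 14 alternatives. The paralogues Ucp2 and Ucp3, which encode mitochondrial carriers with no established part in heat production by fat, did not pass. Ucp3 measured 72.2 and 63.9 CPM in dermal libraries against 62.0 and 44.1 in inguinal ones (95% interval -0.08 to 0.83), and Ucp2 had an interval of -0.16 to 0.93. Per kilobase of exon, Ucp1 thus stood at 26.9 CPM in inguinal libraries, beside 16.9 for Ucp3 and 5.67 for Ucp2, and at 0.0278 in dermal libraries, beside 21.7 and 7.29.

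Dio2 (chromosome 12, 90724552 to 90738438) encodes the deiodinase that makes active thyroid hormone inside brown fat, where it strengthens the response to cold. It measured 3.28 and 2.56 CPM in dermal libraries against 5.91 and 5.24 in inguinal ones. The depots did not overlap, but the gene rested on 27 to 70 reads per library. An annotated gene on the opposite strand, Gm26512, overlaps Dio2, and its reads may not be separable. The difference missed the threshold (log2 fold change -0.83, 95% interval -1.42 to -0.25, limma adjusted p = 0.0663). Over the alternatives its adjusted p ranged from 0.0101 to 0.321, passing without the intensity trend (limma adjusted p = 0.0443) and with the replicate number as a term. The deiodinases Dio1 and Dio3 were below the filter. The 8 tested genes of a thyroid hormone list that leaves out Dio2 had a median log2 fold change of -0.01.

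Cidea encodes a lipid droplet protein that is abundant in brown fat and promotes the transfer of lipid between droplets. It lies on chromosome 18, 67343604 to 67367785. Cidea measured 1.18 and 2.75 CPM in dermal libraries against 58.1 and 63.4 in inguinal ones. The inguinal libraries agreed closely, and the lowest of them was 21.1 times the highest dermal library. The log2 fold change of -4.71 (SE 0.32, limma adjusted p = 0.00156) was, of all 12797 tested genes, the most negative after that of Ucp1. Its related droplet protein gene Cidec, the form of white fat with large droplets, went the other way without passing, at 2626 and 2475 CPM in dermal libraries against 1724 and 1682 in inguinal ones (log2 fold change 0.58, SE 0.17, limma adjusted p = 0.0629). Even in inguinal libraries Cidec was the more abundant per kilobase of exon, by 17.8 and 15.9 times, against 1333 and 540 times in dermal libraries. A transcript that overlaps the start of Cidea on the opposite strand, B430212C06Rik, stayed at 0.679 to 1.09 CPM in all 4 libraries.

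Elovl3, an elongase that brown fat induces in the cold to make very long-chain fatty acids, lies on chromosome 19, 46131897 to 46135694. It gave 9 and 5 reads in dermal and 46 and 8 reads in inguinal libraries, or 0.819 and 0.474 CPM against 3.88 and 0.776 CPM. Inguinal replicate 1 alone was high, and inguinal replicate 2 fell between the dermal values. The exact 95% Poisson intervals of the inguinal libraries, 2.84 to 5.18 and 0.335 to 1.53 CPM, did not overlap. With no filter on low values the log2 fold change was -1.06 (limma adjusted p = 0.330). Elovl6, which elongates the products of fatty acid synthesis, was also highest in inguinal replicate 1, at 393 and 181 CPM in dermal libraries against 1448 and 369 in inguinal ones, and did not pass (limma adjusted p = 0.175). Elovl1 ranged from 16.7 to 20.5 CPM over all libraries.

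The remaining members act in mitochondria and are the isoforms that muscle, heart and brown fat share. Cpt1b, on chromosome 15, 89416405 to 89425863, encodes a carnitine palmitoyltransferase that admits fatty acids to mitochondria. It measured 2.64 and 2.75 CPM in dermal libraries against 13.3 and 26.3 in inguinal ones. Both inguinal libraries were at least 4.82 times the highest dermal one, with a log2 fold change of -2.59 (SE 0.33, limma adjusted p = 0.00542) that was called in all 14 alternatives. Cpt1b shares its locus with Chkb, a choline kinase gene, and the table also lists a joined transcript of both. The Chkb row stayed between 25.4 and 29.0 CPM in all 4 libraries, and the joined row came to 95.7% to 99.3% of the sum of the 2 single rows, so most reads there were counted in more than 1 row.

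The liver-type isoform Cpt1a went against Cpt1b. It measured 71.5 and 109.6 CPM in dermal libraries against 39.0 and 53.6 in inguinal ones, and was higher in dermal (log2 fold change 0.95, SE 0.24, limma adjusted p = 0.0467). The Cpt1a call was lost without dermal replicate 2 (0.64, limma adjusted p = 0.197) and in 4 other alternatives. Per kilobase of exon, Cpt1b made up 7.72% and 5.38% of the 2 isoforms in dermal and 43.5% and 52.6% in inguinal libraries. The difference between their log2 fold changes was -3.53.

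Cox7a1, on chromosome 7, 30184144 to 30186078, encodes a subunit isoform of cytochrome c oxidase, the enzyme that passes electrons to oxygen. It measured 4.28 and 5.31 CPM in dermal libraries against 11.7 and 24.1 in inguinal ones. The inguinal libraries differed from each other by a factor of 2.07, but both were above both dermal ones (log2 fold change -1.72, SE 0.35, limma adjusted p = 0.0225). That call was lost without dermal replicate 1 (limma adjusted p = 0.0534). The isoform of other tissues, Cox7a2, measured 82.9 and 75.5 CPM in dermal libraries against 117 and 93.5 in inguinal ones and did not pass (95% interval -0.77 to -0.03, limma adjusted p = 0.129). Of both isoforms per kilobase of exon, Cox7a1 was 8.34% and 11.0% in dermal and 14.9% and 31.3% in inguinal libraries.

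Cox8b, on chromosome 7, 140898945 to 140900446, encodes another such subunit isoform, and was the most abundant member per kilobase of exon in both depots. It measured 38.5 and 37.5 CPM in dermal libraries against 70.9 and 58.8 in inguinal ones. The groups did not overlap, and the difference was the smallest of the 8 called (log2 fold change -0.76, SE 0.15, limma adjusted p = 0.0198). It was lost without dermal replicate 1 (limma adjusted p = 0.0908) and without dermal replicate 2 (0.104). Its counterpart Cox8a measured 312 and 371 CPM in dermal libraries against 340 and 298 in inguinal ones, with a 95% interval of -0.27 to 0.45. Cox8b was 17.5% and 14.8% of both isoforms per kilobase of exon in dermal and 26.4% and 25.3% in inguinal libraries.

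**Figure D2:**
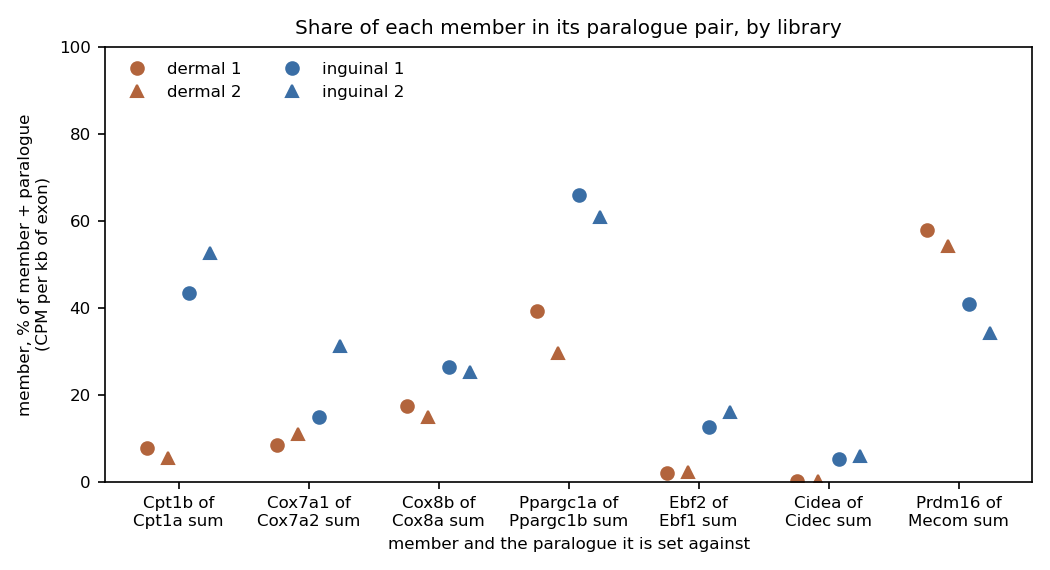
Share of a member in the sum of the member and its paralogue, in percent of CPM per kilobase of exon (vertical axis), in each of the 4 libraries for the pairs of Cpt1b with Cpt1a, Cox7a1 with Cox7a2, Cox8b with Cox8a, Ppargc1a with Ppargc1b, Ebf2 with Ebf1, Cidea with Cidec and Prdm16 with Mecom. The member's share is higher in both inguinal than in both dermal libraries in 6 of these 7 pairs and lower for Prdm16 against Mecom.

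Across 13 pairs of a member and a paralogue, the member leaned further towards inguinal than the paralogue in 11. The exceptions were Prdm16 against Mecom, where the paralogue leaned further by 1.05 on the log2 scale, and Elovl3 against Elovl6. Ucp1, Ebf2, Cox7a1 and Elovl3 recur among the pairs, so the 13 are not independent. In Elovl3 against Elovl1, counted among the 11, the depots overlapped. The differences of log2 fold changes ran from -6.62 for Ucp1 against Ucp2 to 1.05 for Prdm16 against Mecom. With 2 libraries per depot, the smallest p that an exact two-sided permutation test over libraries can give is 0.333, and 11 pairs reached it (0.394 when adjusted over the 13 pairs). No pair could therefore pass.

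**Figure D3:**
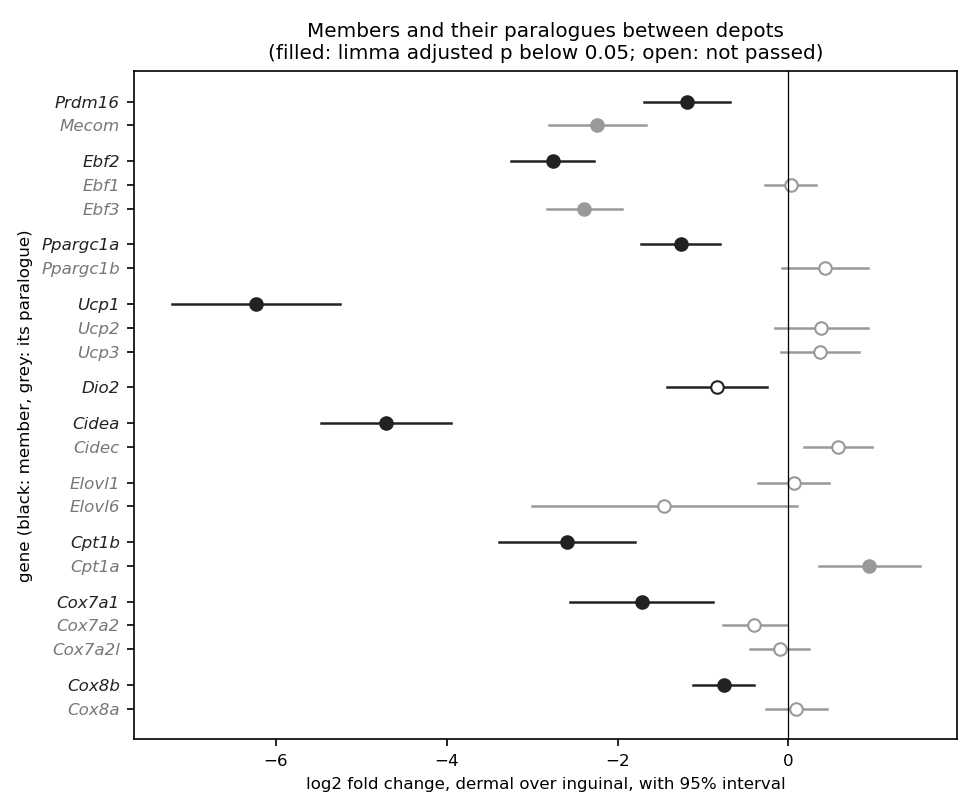
Log2 fold change, dermal over inguinal (horizontal axis), with 95% intervals from the limma fit for the 9 tested members (black) and the tested paralogues (grey), filled where the adjusted p was below 0.05. All 9 members lie left of 0, whereas most paralogues lie near or right of 0. Ebf3 and Mecom lie left with their members, and Elovl6 and Cox7a2 lie left without passing. Elovl3 is not shown because it was below the filter.

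Ranked by level per kilobase of exon within inguinal libraries, Cox8b came first (180 CPM per kb), followed by Cidea (54.5), Cox7a1 (33.5), Ucp1 (26.9), Cpt1b (5.86), Ebf2 (5.43), Ppargc1a (4.66), Elovl3 (1.18), Dio2 (0.958) and Prdm16 (0.955). Library ranges overlapped between Cox7a1 and Ucp1, between Cpt1b and Ebf2, between Ebf2 and Ppargc1a, and among the last 3, so those neighbours were not separated. In dermal libraries the order began with Cox8b (105.5), Cox7a1 (8.96) and Ppargc1a (1.92), and Ucp1 came last. Cidea (1.76) overlapped Ppargc1a there. Adiponectin (Adipoq), for scale, stood at 2791 CPM per kb in dermal and 2277 CPM per kb in inguinal libraries.

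The inguinal libraries also differed from each other, and not in the same way for all members. Inguinal replicate 2 was above replicate 1 by 2.33 times for Ucp1, 2.07 times for Cox7a1 and 1.98 times for Cpt1b. For Cidea, Ppargc1a and Prdm16 the factor was 1.09, 1.08 and 1.03. Ebf2 lay between, at 1.34. Dio2 and Cox8b were lower in replicate 2, at 0.886 and 0.830 of replicate 1, and Elovl3 was at 0.200 of it. Over the same libraries the summed endothelial markers stood 1.55 times, the fibroblast and adipocyte progenitor markers 1.62 times and the red blood cell markers 1.83 times higher in replicate 2, skeletal muscle markers were at 0.787 and mature adipocyte markers at 0.914. Whether these have a part in the members' values was not tested.

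**Figure D4:**
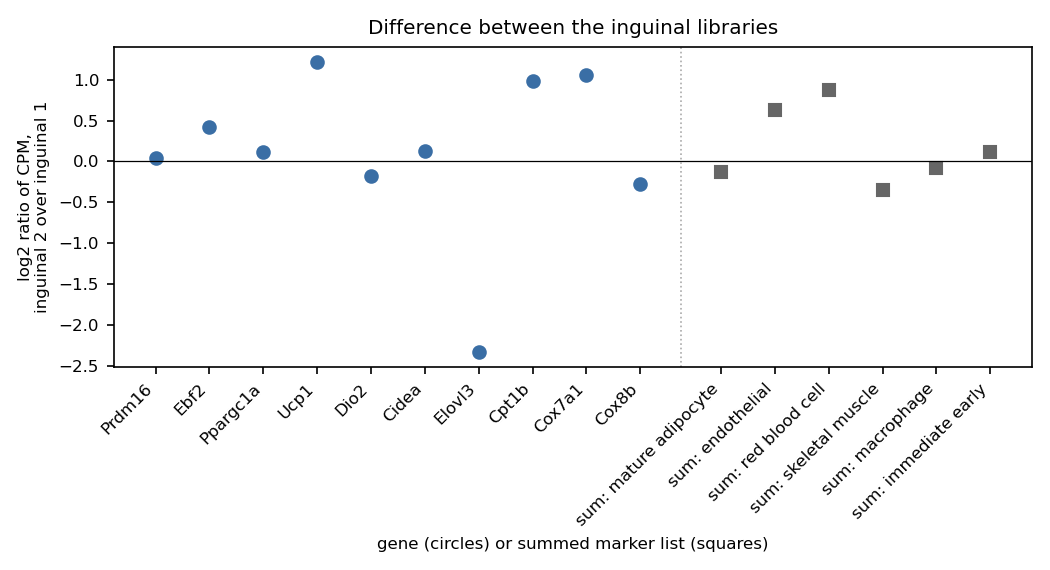
Log2 ratio of CPM in inguinal replicate 2 over inguinal replicate 1 (vertical axis) for the 10 genes (circles) and for the summed CPM of 6 marker lists (squares). Ucp1, Cox7a1 and Cpt1b lie near or above 1, Elovl3 lies far below 0, and the endothelial and red blood cell sums lie above 0.

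Skeletal muscle expresses Cpt1b, Cox7a1 and Cox8b strongly, so its markers were read beside them. Their sum was 159 and 135 CPM in dermal libraries against 135 and 106 in inguinal ones, so the depots overlapped. Of 25 muscle markers 17 were tested, and 15 of these had a positive log2 fold change (median 0.55). Among all tested genes 48.6% had a negative one. Des and Pygm were the 2 called higher in inguinal (8.8% of all tested genes). Ckm and Ttn were the 2 called higher in dermal (7.56% of all). The muscle actin gene Acta1 measured 12.6 and 14.6 CPM in dermal libraries against 17.9 and 8.24 in inguinal ones. Myosin Myh7 had no read in 3 of the 4 libraries, and Cox6a2, another oxidase subunit of muscle and brown fat, was at 0.0844 to 0.285 CPM throughout, under the level of 3 reads or close to it.

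Markers of other cells also differed between the depots, some in the direction of the members and some against it. For scale, 8.8% of all tested genes were called higher in inguinal and 7.56% higher in dermal. All 20 endothelial markers had negative log2 fold changes and 19 were called higher in inguinal libraries (median -1.97). Their summed level was 570 and 643 CPM in dermal libraries against 2040 and 3153 in inguinal ones, and none was at 0 (Pecam1 measured 88.2 and 95.5 against 283 and 435 CPM). Red blood cell markers were called higher in inguinal libraries for 9 of 10 tested rows, some of them near-identical globin copies with equal values, at a sum of 49.7 to 75.9 against 174 to 318 CPM. Immediate early genes, which cell handling and stress induce, were called higher in inguinal libraries for 15 of 20, at 2573 and 3684 CPM in dermal libraries against 7977 and 8643 in inguinal ones. Macrophage markers went the other way, with 15 of 18 tested called higher in dermal libraries and sums of 1928 to 2068 against 664 to 704 CPM. Pericyte and smooth muscle markers were called higher in inguinal libraries for 7 of 12 tested and higher in dermal for 2 (Cspg4 and Mcam), at sums of 763 and 750 against 780 and 904 CPM. Keratinocyte and hair follicle markers were called higher in dermal libraries for 6 of 9 tested, at sums of 133 and 68.6 against 31.3 and 25.1 CPM. Fibroblast and adipocyte progenitor markers were called higher in dermal for 2 of 12 tested (Dpt and Thy1) and higher in inguinal for 1 (Pdgfrb). Their sums were 5608 and 11314 CPM in dermal libraries against 3677 and 5946 in inguinal ones. Mammary epithelium markers (2 of 2 tested) and nerve and Schwann cell markers (2 of 7) were called higher in dermal, and 0 higher in inguinal. The part of these cells and responses in the members' differences was not tested.

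Most genes of the upstream signal were not called. Of 26 tested genes of adrenergic and cyclic AMP input, 5 were called higher in inguinal and 2 in dermal libraries. The shares of all tested genes were 8.8% and 7.56%, so the dermal count was near the share of all. The median log2 fold change of the 26 was -0.22. Negative log2 fold changes were found in 19 of the 26 (48.6% of all tested genes), and 15 had both inguinal values above both dermal ones (30.1% of all). Adrb3, the beta-adrenergic receptor of adipocytes, measured 259.8 and 173 CPM in dermal libraries against 232 and 193 in inguinal ones (95% interval of the difference -0.51 to 0.52). Adora2a, an adenosine receptor that can raise cyclic AMP, measured 1.27 and 1.80 against 9.54 and 7.76 CPM (log2 fold change -2.17, limma adjusted p = 0.00463). The phosphodiesterase gene Pde4b, whose product degrades cyclic AMP, measured 18.5 and 30.2 against 100.3 and 163 CPM (-2.41, limma adjusted p = 0.00500). Without dermal replicate 1 the counts were 3 and 1, and without dermal replicate 2 they were 5 and 0.

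Other regulators linked to brown fat were called in both directions. Of 45 tested, 5 were called higher in inguinal (among them Esrrg, Klf11, Sirt1 and Nr1d1) and 8 higher in dermal libraries (Rxra, Tle3, Zbtb7b, Klf15, Cebpa, Zfp423, Zic1 and Twist1), with a median of 0.02. These genes are named because they were called, and not all promote the brown state. The same calls took in 8.8% and 7.56% of all tested genes. Of the 8, Zfp423 and Twist1, both known to act against the brown state, were picked with their values in view. They do not stand for the 8. Rxra, Tle3, Zbtb7b, Klf15, Cebpa and Zic1 were called in the same direction, and their roles are not classed here. Zfp423, known to hold adipocytes in the white state, measured 90.1 and 89.9 CPM in dermal libraries against 42.1 and 47.6 in inguinal ones (log2 fold change 1.00, limma adjusted p = 0.00584). Twist1, which restrains PGC-1alpha, measured 29.7 and 38.04 against 15.1 and 16.2 CPM (1.08, limma adjusted p = 0.0124, lost without dermal replicate 2 at 0.0744). Zic1, a marker of classical brown fat of the interscapular region, gave 166 dermal reads and 1 inguinal read, although it overlaps Zic4 on the opposite strand. Pparg, the receptor at the head of all fat cell formation, had a 95% interval of -0.42 to 0.46. Without dermal replicate 1 the counts were 4 and 4, without dermal replicate 2 they were 7 and 3, and without inguinal replicate 1 they were 10 and 8.

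Among 28 tested further markers of brown and beige fat, 9 were called with inguinal above dermal and 3 with dermal above inguinal. The shares of all tested genes were 8.8% and 7.56%. The median log2 fold change of the 28 was -0.26. Otop1, a proton channel gene of brown fat, measured 0.728 and 0.949 CPM in dermal libraries against 7.09 and 7.37 in inguinal ones (log2 fold change -2.53, limma adjusted p = 0.00297), and passed the filter through the inguinal libraries alone. P2rx5, a purinergic receptor used as a surface marker of brown adipocytes and named after its values were seen, measured 3.46 and 2.66 against 16.2 and 11.5 CPM (95% interval of the log2 fold change -2.62 to -1.39, limma adjusted p = 0.00536). The beige surface markers Tmem26 and Tnfrsf9 were below the filter, at 0.364 to 2.18 CPM over all libraries. Lhx8, a classical brown marker, measured 3.19 and 5.41 against 5.74 and 6.30 CPM and did not pass. The 3 higher in dermal were Zic1, Epsti1 and Cd40, and without dermal replicate 1 or 2 this count was 1.

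Genes of fatty acid oxidation leaned towards inguinal libraries. In the carnitine shuttle and mitochondrial fatty acid oxidation, 9 of 23 tested genes were called with inguinal above dermal (8.8% of all tested genes). Cpt1a was the 1 called with dermal above inguinal (7.56% of all). Negative log2 fold changes were found in 20 of the 23 (48.6% of all), and the median of the 23 was -0.42. The thiolase gene Acaa2 measured 73.2 and 73.1 CPM in dermal libraries against 152 and 141 in inguinal ones (log2 fold change -0.997, limma adjusted p = 0.00466). Acadl, an acyl-CoA dehydrogenase gene, had a log2 fold change of -1.02 (limma adjusted p = 0.00665). Without either dermal replicate only 2 genes were called higher in inguinal. Of 12 tested cytochrome c oxidase subunits other than the 2 members, 1 was called (Cox6c, -0.72, limma adjusted p = 0.0221, lost without either dermal replicate), with a median of -0.28. That share is close to the 8.8% of all tested genes. However, 10 of the 12 had negative log2 fold changes (48.6% of all), and 8 had both inguinal values above both dermal ones (30.1% of all).

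Heat can also be made without UCP1, by futile cycles of creatine, calcium or glycerolipid. Of 17 tested genes of these cycles, 4 were called with inguinal above dermal and 1 (Ckm) with dermal above inguinal. The shares of all tested genes were 8.8% and 7.56%. The median log2 fold change of the 17 was -0.11. The calcium release channel gene Itpr1 measured 93.8 and 85.2 CPM in dermal libraries against 141 and 154 in inguinal ones (log2 fold change -0.72, limma adjusted p = 0.0155), and Itpr2 had a log2 fold change of -1.53 (0.0237). All 5 calls were lost without dermal replicate 1 (limma adjusted p = 0.0667 for Itpr1 and 0.0571 for Itpr2), and that of Itpr1 also without dermal replicate 2 (0.121). The call of Ckm, the muscle creatine kinase gene, was lost whichever library was left out (limma adjusted p 0.0506 to 0.281). Of 15 tested secreted factors ascribed to brown fat, 4 were called in each direction (8.8% of all tested genes for inguinal, 7.56% for dermal). Il6, a cytokine gene that stress also induces, measured 16.9 and 18.0 against 126.7 and 122 CPM (-2.80, limma adjusted p = 0.000664), and Gdf15, a stress-induced hormone gene, 12.02 and 18.03 against 2.62 and 3.78 CPM (2.06, limma adjusted p = 0.00674). Without dermal replicate 1 the counts, inguinal first, were 2 and 2, and without dermal replicate 2 they were 1 and 3.

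**Figure D5:**
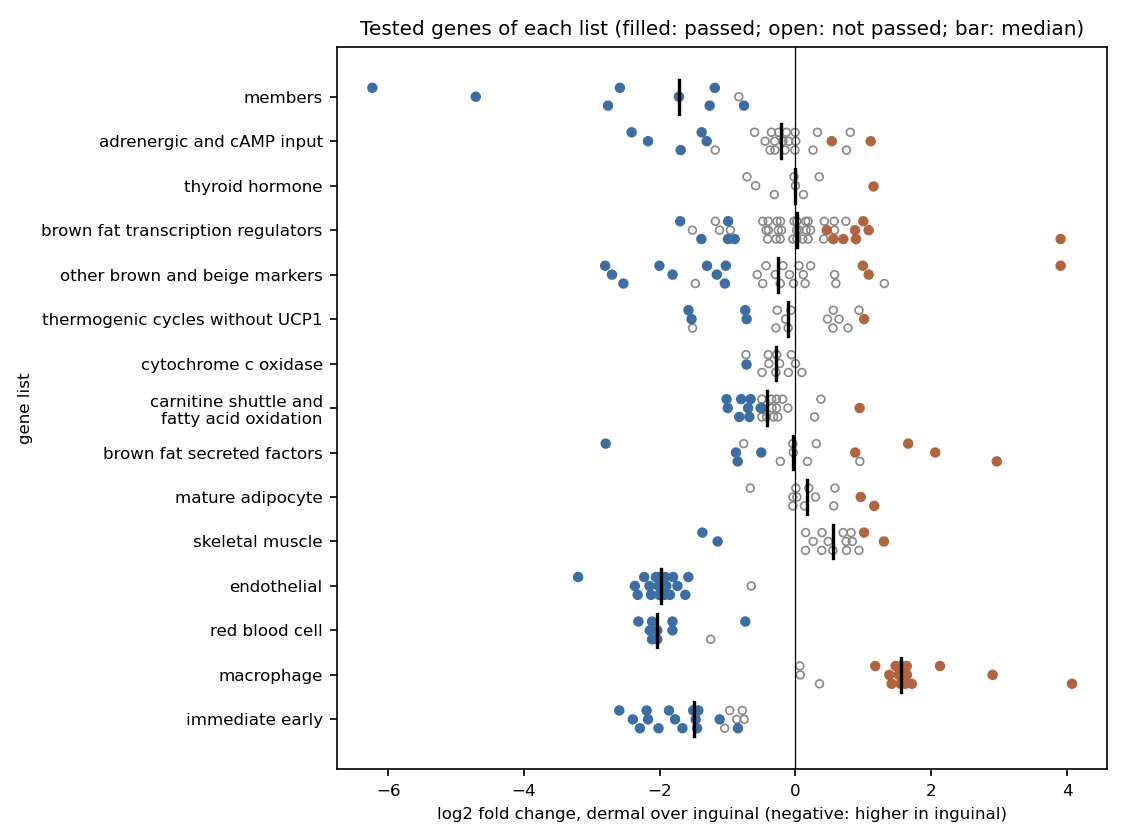
Log2 fold change, dermal over inguinal (horizontal axis), of the tested genes of 15 lists (rows), with filled points for genes called by limma, open points for genes not called and a bar at each list's median. The 9 members lie left of 0 with a median of -1.72, and the lists of the wider pathway have medians between -0.42 and 0.02. Endothelial, red blood cell and immediate early genes lie to the left, and macrophage genes to the right.

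The 5 tested genes whose centred log2 levels over the 4 libraries lay nearest to those of Ucp1 were Cxcl9 (Euclidean distance 2.14), Col28a1 (2.54), Gata6 (2.59), Iigp1 (2.64) and Tnc (2.82). Cxcl9 encodes a chemokine and Iigp1 a GTPase, both induced by interferon-gamma, and Tnc and Col28a1 encode matrix proteins. None belongs to the lists of the brown fat pathway. Col28a1 and Tnc shared with Ucp1 the higher level in inguinal replicate 2, at 14.02 and 32.4 CPM for Col28a1 and 46.8 and 97.6 CPM for Tnc. Over only 4 libraries this likeness describes the order and spacing of the values.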

How the data were processed

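RNA of 2 dermal and 2 inguinal adipocyte libraries was measured. The authors deposited a signal per gene, which is CPM divided by a further library factor (0.930 to 1.04 as recovered). Every value was a whole multiple of 1 read (100% within 0.001), so reads were recovered, 10127125 to 12730013 per library. The submitters' processing notes name TopHat2 2.0.12, Picard 1.127, Subread 1.4.6 with featureCounts, edgeR and mm10, and the labels' protocols a stranded total RNA kit. Whether counting used strand is not stated in the labels. The edgeR quasi-likelihood test on recovered reads called 2056 genes, DESeq2 1985 and limma 2094.

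The main test was limma 3.58.1 (R 4.3.3) with an intensity trend, fitted to log2(CPM + 0.5) and tested on simulated data, for genes at 1 CPM or more in 2 libraries. Groups came from sample titles. Alternatives were other pseudocounts, filters, scalings and tools (edgeR 4.0.16, DESeq2 1.42.0), each library left out and the replicate number as a term. Exon lengths are unions over GENCODE transcripts. Members and gene lists were chosen with earlier results of these data known, and lists were fitted in no set test. Named genes are the members, their paralogues, a fixed set, and the 2 of lowest adjusted p and the 2 of greatest mean in each list, of which some are printed. Any further gene was picked with its values in view. Counting intervals cover counting error only.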

Additional observations from a re-analysis of the deposited data

How the results depend on the processing

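All 9 tested members kept a negative log2 fold change in all 14 alternatives. Ucp1, Cidea, Ebf2, Cpt1b and Ppargc1a were called in each of the 14, Cox7a1 in 13, Cox8b and Prdm16 in 12 and Dio2 in 2. With each library left out in turn, the number of members called ranged from 5 to 8, that of all genes from 1023 to 2636, that higher in inguinal from 568 to 1470 and that higher in dermal from 339 to 1212. With the replicate number as a block, 4726 genes were called (2384 higher in inguinal, 2342 higher in dermal), and 9 members with Dio2 among them. Replicate 1 of both depots deviated together (correlation across genes 0.46), but the labels do not say whether the number marks a shared animal or batch, which is not known. The other alternatives left these counts within a factor of 1.5. Leaving out a dermal library left that depot with 1 library, assumed to vary like the inguinal pair. Dio2 and Prdm16 rested on 27 to 104 reads per library and Elovl3 on 5 to 46, and the part of depth in their missing or unstable calls was not tested.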
